A study of Homo sapiens with 3 samples.

Results

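The genes that make, bind and degrade hyaluronan were followed in HT29, an established human colon adenocarcinoma cell line, grown on 3 culture substrates. The 10 genes were chosen by name. They are the receptors CD44, HMMR and TLR4, the synthases HAS1, HAS2 and HAS3, the hyaluronidases HYAL1, HYAL2 and HYAL3, and the hyaluronan depolymerising protein CEMIP. The array carried 17 probes for them among 50599 probes that were not controls, and the genes are 10 of the 21614 that could be named. Each substrate was measured on 1 single-colour array of Cy3-labelled cRNA. The substrates were tissue culture polystyrene (TCP), a chitosan membrane (CS) and a chitosan membrane grafted with hyaluronan, abbreviated HA (CSHA). No treatment other than the substrate is named in the labels, and the cells on all 3 substrates were from the same line.

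Hyaluronan is a long unsulfated polymer of glucuronic acid and N-acetylglucosamine, which HAS enzymes extrude through the plasma membrane from UDP-sugars. Cells bind it mainly through CD44, a surface glycoprotein that is linked to the actin cytoskeleton and is widely used to mark colon cancer stem cells. HMMR, also called RHAMM, binds hyaluronan and acts at the mitotic spindle, while TLR4 is the lipopolysaccharide receptor, to which a response to hyaluronan fragments has also been ascribed. HYAL2 cuts long chains at the cell surface, HYAL1 cuts them further in the lysosome, and CEMIP depolymerises hyaluronan outside the HYAL family. Chitosan is a polymer of glucosamine and N-acetylglucosamine, so both membranes present a sugar polymer to the cells and CSHA presents the CD44 ligand itself. The arrays therefore allow the question of whether the genes that handle hyaluronan had other mRNA levels on a surface that carries it.

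The 250 bases before the RefSeq start of 3 members are shown (assembly GRCh38.p14), because the mRNA levels of these genes were ordered differently over the substrates. CD44 and CEMIP had their highest level on CSHA, and HMMR had its highest level on CS. No HMMR difference was past the scanner error described below. With the arrays scaled to the spike-in probes HMMR was highest on CSHA too, so its order is not settled. Capitals mark matches on either strand to 4 short motifs, which are the TCF/LEF motif (CTTTGNT), the cell cycle motif CHR (TTTGAA), the CCAAT box (CCAAT) and the GC box (GGGCGG). The windows lie on the plus strand at chr11:35138921-35139170 for CD44, chr15:80779120-80779369 for CEMIP and chr5:163460382-163460631 for HMMR.
CD44: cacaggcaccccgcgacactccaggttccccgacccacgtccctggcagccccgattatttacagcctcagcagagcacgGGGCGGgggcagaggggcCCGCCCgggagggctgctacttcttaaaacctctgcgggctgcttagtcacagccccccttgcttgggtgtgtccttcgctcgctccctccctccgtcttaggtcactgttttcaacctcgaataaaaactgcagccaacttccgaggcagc
CEMIP: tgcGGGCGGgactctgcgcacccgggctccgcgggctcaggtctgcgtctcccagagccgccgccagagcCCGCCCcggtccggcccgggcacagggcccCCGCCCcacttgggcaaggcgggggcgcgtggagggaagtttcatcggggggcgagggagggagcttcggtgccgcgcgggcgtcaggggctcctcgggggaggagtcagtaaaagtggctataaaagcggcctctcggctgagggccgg
HMMR: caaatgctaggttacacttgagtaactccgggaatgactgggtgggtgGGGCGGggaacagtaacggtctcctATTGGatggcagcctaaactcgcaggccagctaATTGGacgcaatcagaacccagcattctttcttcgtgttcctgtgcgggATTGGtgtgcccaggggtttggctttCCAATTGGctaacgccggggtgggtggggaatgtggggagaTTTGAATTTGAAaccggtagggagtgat
The CD44 window held 2 GC boxes and the CEMIP window held 3, and neither window had a match to the other motifs. The HMMR window held 5 CCAAT matches, of which a pair overlap, a pair of adjoining CHR matches that begin at positions -28 and -22 from the start, and 1 GC box. Over 35116 promoter windows of the same length, 32.0% held a CCAAT match, 13.3% a CHR match, 42.6% a GC box and 13.2% a TCF/LEF match. None of the windows of the 9 members searched held the TCF/LEF letters, and HAS2 was not searched. A match of letters is a description of the window and was not tested as a binding site.

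Levels are log2 processed signals relative to the 75th percentile of the array, so that 0 is a probe at that percentile. The 75th percentile was a signal of 354 on TCP, 423 on CS and 337 on CSHA. Between 48.6% and 51.1% of the probes were well above background by the flag of the scanner software. No spot was saturated. The colon epithelial markers were well above background on every array for 10 of 10 genes (EPCAM, CDH1, keratins, CDX1 and CDX2 among them), as the label of a colon cell line has it. Of the 10 fibroblast and stromal markers, SPARC and VIM were flagged so on TCP, none on CS and PDGFRB on CSHA. Of 6 leukocyte markers, 2 passed on CS and 3 on each of the other arrays, while 3 of 4 endothelial markers passed on each array. On TCP these endothelial markers, PECAM1, VWF and CDH5, lay at -3.08, -3.40 and -2.64, where the lowest level well above background was -3.88. EPCAM lay there at 6.90, and the epithelial marker CDH17 at -3.42. Not all markers of other cells lay so low. The leukocyte marker CD68 lay at -1.57 on TCP, -0.77 on CS and -0.56 on CSHA. CD3E lay at -1.54 and PTPRC at -3.17 on TCP, and PDGFRB lay at -1.90 on CSHA. COL1A1, COL1A2, COL3A1 and DCN were well above background on no array. The part of other cells in any value was not tested. In RNA from a whole culture, fewer cells that express a gene and less RNA per cell cannot be told apart.

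Each substrate had 1 array, so no difference has a replicate check and no test was possible. A pair of error measures is given instead. The scanner software reports an error for each spot, which came to a log2 error of 0.20 to 0.31 for a difference between arrays of a member probe well above background on all arrays, and a difference is called past the scanner error where it exceeded 1.96 times that value. The SD among the spots of probes printed 10 times at a like level gave 0.06 to 0.24 for the same differences. Neither covers differences between cultures. The 2 comparisons with TCP share the TCP array, and the 2 with CSHA share the CSHA array.

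Of the 17 member probes, 13 were well above background on all arrays and 4 on none. The 13 probes belong to 8 genes, which are all members except HAS1 and HAS2. Since the measured members were measured on every array, no member entered the comparisons through 1 array alone. For CSHA over TCP, 5 of the 13 probes were higher past the scanner error, where 18.3% of 23328 probes well above background on both arrays were, and 0 were lower, where 15.3% were. For CSHA over CS, 1 of 13 was higher, where 13.3% of 24131 probes were, and 0 lower, where 10.7% were. For CS over TCP none of the 13 was past it, where 7.07% of 23671 probes were higher and 8.06% lower. Many probes thus passed this error in either direction, and the 5 probes belong to 4 genes.

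**Figure D1:**
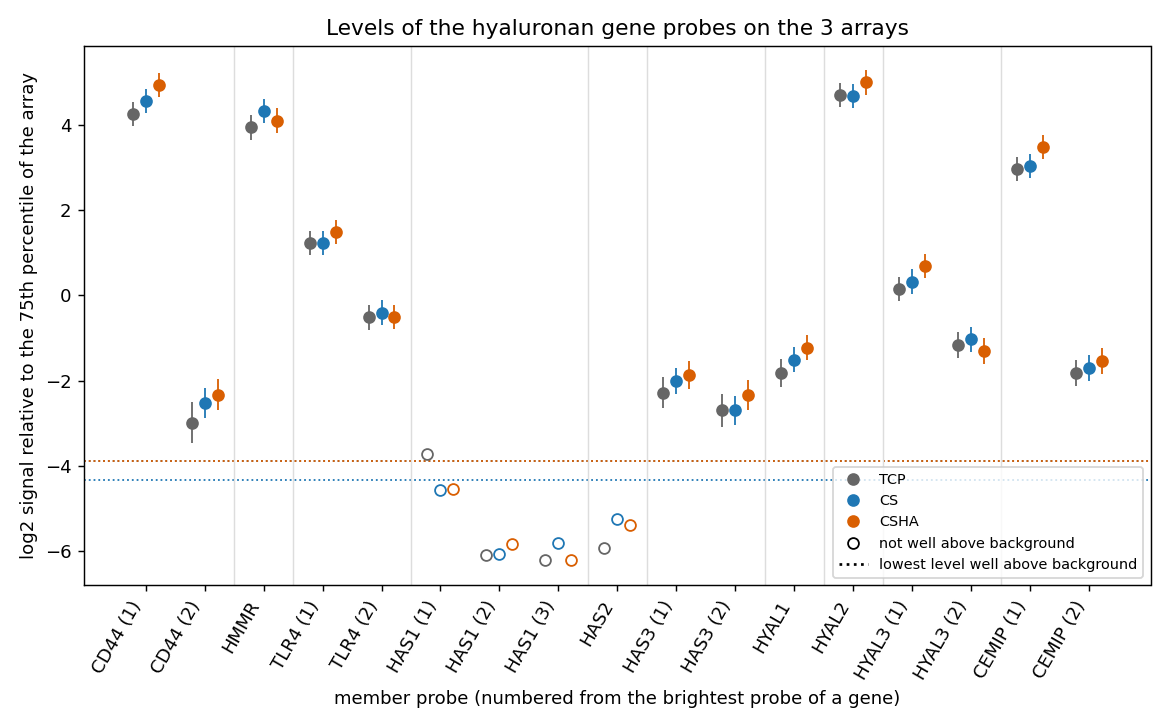
Log2 signal relative to the 75th percentile of the array (vertical axis) for the 17 member probes, numbered from the brightest probe of a gene, on TCP, CS and CSHA. Bars are 1.96 times the scanner error, open circles are probes not well above background, and heights are compared only between arrays of the same probe. The HAS1 and HAS2 probes are open on all arrays, and the brightest CD44 probe lies at 4.26 on TCP, 4.57 on CS and 4.93 on CSHA.

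CD44 was the member with the largest difference from TCP. Its brightest probe (A_33_P3294509, NM_000610) had a signal of 6765 on TCP, 10015 on CS and 10284 on CSHA, which are levels of 4.26, 4.57 and 4.93. The level was lowest on TCP and highest on CSHA. On CSHA it was 1.60-fold that on TCP, a log2 difference of 0.67 with a scanner error interval of 0.27 to 1.07. On CS the log2 difference from TCP was 0.31, with an interval of -0.09 to 0.71 that includes 0. The membranes differed by 0.36 in favour of CSHA, with an interval of -0.04 to 0.76. The signals on the membranes were close before the shift by the 75th percentile, which was lower on CSHA.

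A further CD44 probe (A_21_P0000152, NM_001202557) had signals of 44.5, 73.1 and 67.2 on TCP, CS and CSHA. It had the same order of levels. Its log2 differences were 0.46 for CS over TCP, 0.66 for CSHA over TCP and 0.20 for CSHA over CS, and the interval of the CSHA over TCP difference was 0.06 to 1.27. CD44 was thus past the scanner error on CSHA by both of its probes, and by neither on CS. The gene overlaps the antisense gene CD44-AS1 in RefSeq, and the position of the probes within the gene was not analysed here.

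HMMR was ordered otherwise. Its single probe (A_23_P70007, NM_012484) had a signal of 5448 on TCP, 8511 on CS and 5809 on CSHA, with levels of 3.94, 4.33 and 4.11. The level was highest on CS. CS was above TCP by 0.39, the largest CS difference among the brightest probes of the members, with an interval of -0.01 to 0.79 that just includes 0. CSHA was above TCP by 0.16 (interval -0.24 to 0.56) and its difference from CS was -0.23 (interval -0.63 to 0.17), so none of the HMMR differences was past the scanner error. The sign of the CSHA over CS difference depends on the scaling. With the arrays scaled to the spike-in probes it was 0.14, as the median of all genes moved from 0.07 to 0.44, and relative to that median the difference was -0.29 as reported and -0.30 with the spike-in scaling.

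TLR4 had 2 probes well above background. The brighter (A_32_P66881, NM_138554) had signals of 827, 994 and 947 and levels of 1.22 on TCP, 1.23 on CS and 1.49 on CSHA. TCP and CS were 0.01 apart, and CSHA was above TCP by 0.27 with an interval of -0.13 to 0.67. The other probe (A_24_P69538), annotated to the same transcript, had signals of 248, 319 and 238, and its CSHA over TCP difference was 0.01. The 2 probes thus do not give 1 order of the substrates, and no TLR4 difference was past the scanner error.

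**Figure D2:**
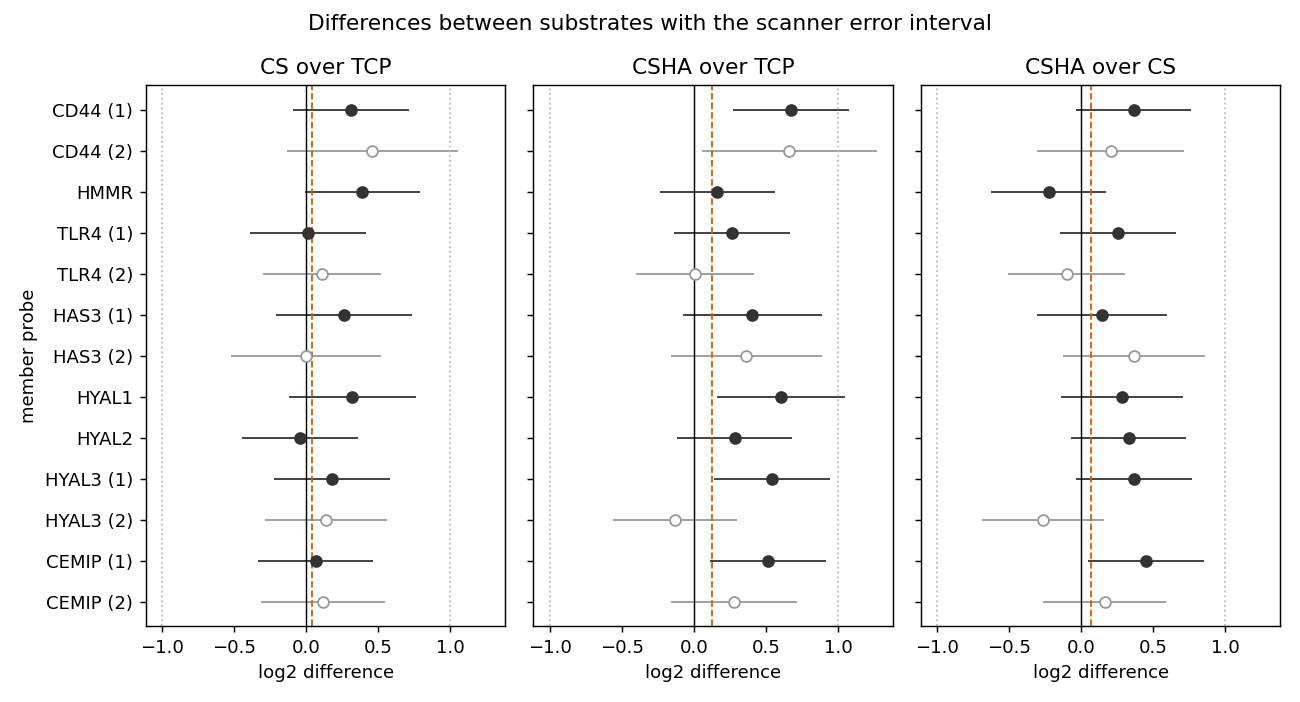
Log2 difference (horizontal axis) of the 13 measured member probes for CS over TCP, CSHA over TCP and CSHA over CS, with bars of 1.96 times the scanner error. Filled points are the brightest probe of a gene, open points other probes, the dashed line is the median of all genes and dotted lines mark 2-fold. The bars clear 0 for no probe in CS over TCP, for 5 in CSHA over TCP and for 1 in CSHA over CS, where 18.3% and 13.3% of all measured probes were higher past that error.

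Of the synthases, HAS3 was the one measured. HAS3 makes shorter chains than the other synthases in biochemical assays. Its brighter probe (A_33_P3402454, NM_138612) had a signal of 73.0 on TCP, 105 on CS and 92.2 on CSHA, with levels of -2.28, -2.01 and -1.87. The level was lowest on TCP. CSHA was above TCP by 0.41, with an interval of -0.07 to 0.89, and CS was above TCP by 0.26. The other HAS3 probe (A_23_P393034, NM_005329) had signals of 54.6, 65.2 and 67.0, with a CSHA over TCP difference of 0.36 and a CS over TCP difference of -0.00. Both probes were highest on CSHA, and none of their differences was past the scanner error.

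HAS1 was well above background by none of its 3 probes on any array. Its brightest probe (A_33_P3295203, NM_001523) had signals of 27.0, 17.8 and 14.4 on TCP, CS and CSHA, and the other 2 probes had signals between 4.52 and 7.47. HAS2, the synthase of very long chains, was printed in 10 spots (A_23_P10206, NM_005328), and none of the spots kept gave a level well above background. On TCP the 2 spots left out as outliers, with signals of 32.7 and 41.9, were the only HAS2 spots flagged as well above background. The other 8 were kept, with a lowest signal of 5.04, a median of 5.65 and a highest of 7.28. On CS 10 spots ran from 4.90 to 18.6 with a median of 11.6, and on CSHA 10 spots ran from 4.94 to 13.8 with a median of 8.02. The spots of the arrays overlap. Over all probes flagged as well above background, the lowest signal was 21.1 to 24.1 on the arrays, and the HAS1 signal of 27.0 on TCP lay above this without the flag. HAS1 and HAS2 were therefore not measured at this sensitivity, no fold was computed for either, and the data do not say that the genes were silent.

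HYAL1, the lysosomal hyaluronidase, was above TCP on both membranes. HYAL1, HYAL2 and HYAL3 are neighbours on chromosome 3. The HYAL1 probe (A_23_P69329, NM_153281) had a signal of 99.8 on TCP, 149 on CS and 144 on CSHA, with levels of -1.83, -1.51 and -1.22. It was lowest on TCP and highest on CSHA. CSHA was 1.52-fold TCP, a log2 difference of 0.60 with an interval of 0.16 to 1.05. CS was above TCP by 0.32, within the scanner error. The CSHA over TCP difference was 0.35 with normexp and 0.38 with the deposited values, both below those of HYAL3 and CEMIP in the same settings, so HYAL1 has no settled rank among these genes.

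HYAL3, a family member whose own hydrolase activity is little established, gave unlike values by its 2 probes. The brighter (A_23_P361405, NM_003549) had signals of 393, 530 and 544 and levels of 0.15 on TCP, 0.33 on CS and 0.69 on CSHA, with CSHA above TCP by 0.54 and an interval of 0.14 to 0.94. The other (A_33_P3273624), annotated to the same transcript, had signals of 158, 207 and 137, with a CSHA over TCP difference of -0.13 and an interval of -0.56 to 0.30. The difference of HYAL3 on CSHA therefore rests on 1 of its 2 probes. HYAL3 overlaps NAA80 in RefSeq, and signal from the 2 genes was not separated here.

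HYAL2 had the least difference between TCP and CS of the HYAL genes. Its probe (A_33_P3365357, NM_033158) had a signal of 9305 on TCP, 10772 on CS and 10790 on CSHA, with levels of 4.72 on TCP and 4.67 on CS. TCP and CS were close and CSHA was highest. The CS over TCP difference was -0.04, the single lower value among the members on CS, and CSHA was above TCP by 0.28 with an interval of -0.12 to 0.68.

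CEMIP differed between the membranes. Its brighter probe (A_23_P324754, NM_018689) had a signal of 2790 on TCP, 3487 on CS and 3796 on CSHA, with levels of 2.98, 3.04 and 3.49. The TCP and CS levels were close and CSHA stood above both. CSHA was above TCP by 0.51, a 1.43-fold difference with an interval of 0.11 to 0.91. CSHA was above CS by 0.45, with an interval of 0.05 to 0.85, and this was the 1 member probe past the scanner error between the membranes. The other CEMIP probe (A_24_P84396) had signals of 100, 129 and 116. Its differences were 0.28 for CSHA over TCP and 0.16 for CSHA over CS, both within the scanner error.

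Set side by side over the 3 comparisons, the members were mostly higher on the membranes, and none differed 2-fold. On CS, 7 of the 8 measured members were above TCP, where 56.8% of 14464 genes were, and their median difference was 0.22 against 0.04 for all genes. No member probe was past the scanner error for CS over TCP, and TLR4 counts among the 7 at 0.01. With the 75th percentile taken over the probes well above background on all arrays, 6 members were above TCP. On CSHA, 8 of 8 were above TCP, where 61.7% of 14623 genes were, and the medians were 0.46 and 0.13. Between the membranes, 7 of 8 were higher on CSHA, where 58.5% of 14599 genes were, and the medians were 0.30 and 0.07. The shares of all genes that were lower in these comparisons were 43.2%, 38.3% and 41.5%. A difference of at least 2-fold was seen upward in 1.37% and downward in 1.92% of genes for CS over TCP. For CSHA over TCP these shares were 3.02% and 3.98%, and for CSHA over CS they were 2.27% and 2.15%. Bounds of genes measured on 1 array make up 111 of the 198 upward and 180 of the 278 downward calls for CS over TCP, whereas the 8 members were measured on all arrays. Among genes measured on all arrays, 84 passed upward and 80 downward for CS over TCP, 263 and 445 for CSHA over TCP, and 108 and 203 for CSHA over CS. No member reached that size. With spike-in scaling, where 1736 genes passed 2-fold upward and 183 downward for CSHA over TCP against 442 and 582 as reported, 2 members passed 2-fold on CSHA (CD44 at 1.10 and HYAL1 at 1.03), and the median of the members was 0.89. The median of the members on CS was 0.13 by the deposited log2 values and 0.14 by the mean over the probes of a gene.

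**Figure D3:**
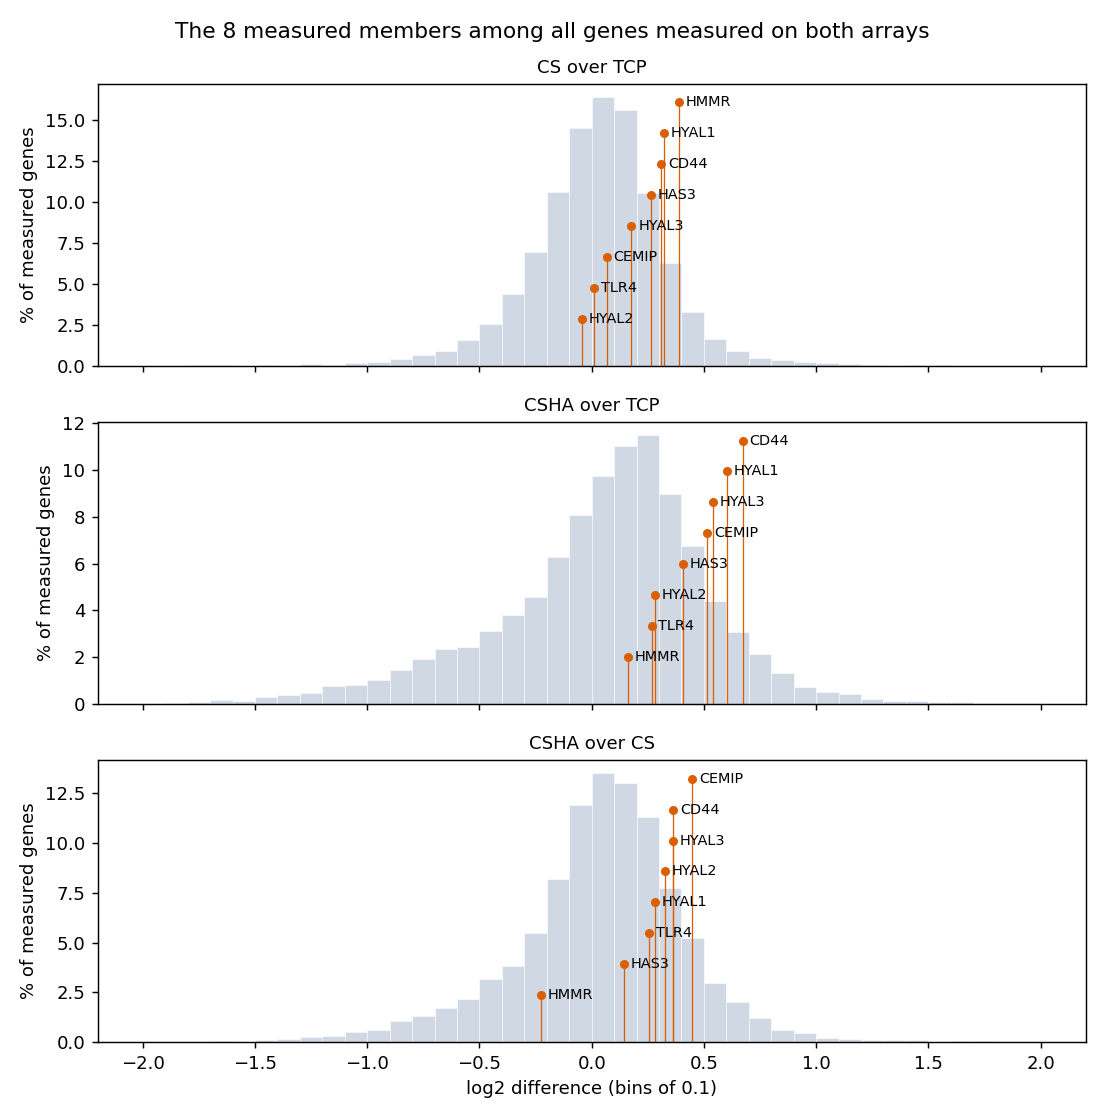
Share of the genes measured on both arrays (vertical axis, %) by log2 difference in bins of 0.1 (horizontal axis) for the 3 comparisons, with the 8 measured members marked at their own difference. Marker heights only separate the names. On CSHA over TCP CD44 lies at 0.67, with 6.96% of genes above it, while HMMR at 0.16 lies near the middle.

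The place of each member among all genes measured on both arrays was taken as a description. On CSHA over TCP, 6.96% of genes had a higher value than CD44. The share was 9.21% for HYAL1, 11.7% for HYAL3, 12.9% for CEMIP, 19.9% for HAS3, 31.3% for HYAL2, 33.3% for TLR4 and 45.2% for HMMR. On CS over TCP the order was another, with 8.16% of genes above HMMR, 12.2% above HYAL1, 13.0% above CD44 and 17.0% above HAS3. TLR4 and HYAL2 were in the lower part of the CS distribution, with 54.5% and 63.0% of genes above them. Between the membranes, CEMIP had 10.5% of genes above it, and HMMR had 80.6%.

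Relative to the median of all genes, the CSHA over TCP differences were 0.55 for CD44, 0.48 for HYAL1, 0.42 for HYAL3, 0.39 for CEMIP, 0.28 for HAS3, 0.16 for HYAL2, 0.14 for TLR4 and 0.04 for HMMR. Over 11 other ways of processing, this relative value was 0.50 to 0.67 for CD44 and 0.30 to 0.51 for CEMIP. It was 0.26 to 0.59 for HYAL1, lowest where the background was corrected from the median spot signal, and 0.11 to 0.53 for HYAL3, lowest where the probes of a gene were averaged. All 8 members stayed above the median of all genes on CSHA in the 11 settings. On CS, HYAL2 was above that median in 1 setting and TLR4 in 2, and the other 6 in all. A setting that only rescales the arrays moves a member and that median almost alike. Such a setting could hardly change the relative value, which for CD44 on CSHA was 0.55 as reported and 0.54 with spike-in scaling. The 11 settings are therefore not 11 separate checks.

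**Figure D4:**
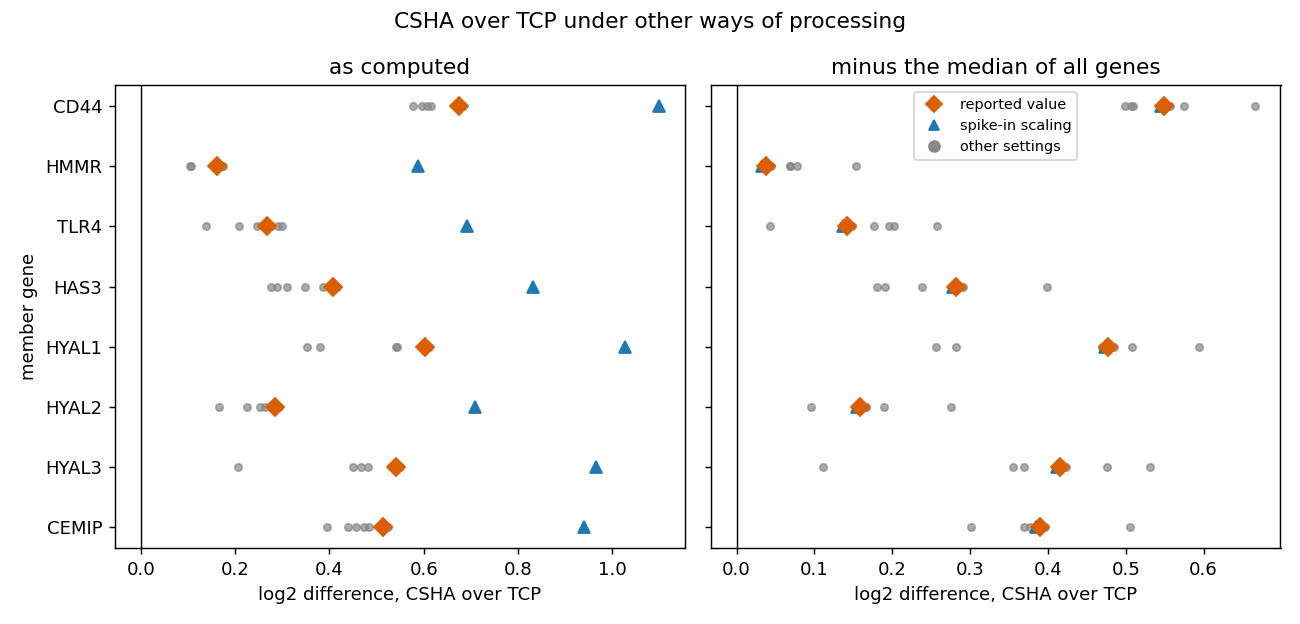
Log2 difference of CSHA over TCP (horizontal axis) for the 8 measured members under the reported processing (diamond), the spike-in scaling (triangle) and the other settings (circles), as computed and after subtracting the median of all genes. The spike-in scaling moves all members by the same amount, 0.67 to 1.10 for CD44, and the right panel is nearly free of that shift.

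The genes whose pattern over the substrates was most like that of CD44 were sought among 1879 genes of like level measured on all arrays, by the distance in the 2 differences from TCP. The closest were PTBP3, UBE2L3 and ERGIC1, with distances of 0.02, 0.03 and 0.04, and 29 genes lay within 0.1. For HMMR the closest of 2309 genes were OTUD6B-AS1, METTL5 and PTGR1, with distances of 0.02, 0.03 and 0.04, and 36 genes lay within 0.1. With 2 differences to match, such nearness is common and says nothing of shared control.

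The other genes of hyaluronan metabolism and binding were described from a list of 84 genes, of which 83 matched a probe. On CS, 37 of 62 genes with a value were above TCP, with a median of 0.06, where 56.8% of all genes were, with a median of 0.04. On CSHA 44 of 61 were above TCP, with a median of 0.20, where 61.7% of all genes were, with a median of 0.13. Between the membranes 41 of 61 were higher on CSHA, with a median of 0.09, where 58.5% of all genes were, with a median of 0.07. These lists are small, and a count near these shares is no result about a list. The scanner error is given below for only some pathway genes, and a difference given without it was not necessarily past it. UGDH was within it on CS at 0.38 and past it on CSHA at 0.59, with log2 scanner errors of 0.20. Only CD14, PLK1, STAB2 and ITIH2 of the list were 2-fold different in any comparison. STAB2 and ITIH2 were so by bounds, for which no scanner error was determined.

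The list of enzymes that make the UDP-sugar precursors also held OGT and OGA, which do not make them and are counted with them. In this list 8 of 10 genes were higher on CSHA than on TCP, with a median of 0.30. On CS 6 of 10 were higher, with a median of 0.10. Of all genes 61.7% and 56.8% were higher in these comparisons, with medians of 0.13 and 0.04. UGDH, which oxidises UDP-glucose to UDP-glucuronic acid, was above TCP by 0.38 on CS and 0.59 on CSHA. PGM3, of the hexosamine pathway to UDP-N-acetylglucosamine, was above TCP by 0.30 and 0.42, although its other probe gave -0.02 and 0.14. UAP1L1, a paralog of the last enzyme of that pathway, was -0.02 on CS and -0.74 on CSHA. OGT, which uses the same UDP-N-acetylglucosamine to modify proteins, differed from TCP by -0.01 on CS and -0.08 on CSHA.

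The list of genes that splice, anchor or shed CD44 also held SPP1, MET and SLC7A11, which are counted with them. In this list 13 of 17 genes were higher on CSHA than on TCP and 11 of 17 on CS, beside 61.7% and 56.8% of all genes. The medians of the list were 0.26 and 0.14, beside 0.13 and 0.04. ADAM17, a sheddase of the CD44 ectodomain, was above TCP by 0.15 on CS and 0.56 on CSHA. Of the ERM proteins that join CD44 to actin, RDX differed by -0.16 on CS and -0.30 on CSHA. MSN differed by -0.24 and -0.06, and EZR by -0.13 and -0.03. None of these ERM differences was past the scanner error. SPP1, the CD44 ligand osteopontin, was well above background on both membranes and not on TCP. It was at least 1.58-fold higher on CSHA than on TCP, and its bound on CS was just under 2-fold.

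The spindle partners of HMMR were split on CSHA. PLK1, a mitotic kinase, differed from TCP by -0.24 on CS and -1.12 on CSHA by its brighter probe, and by -0.47 and -0.40 by its other probe. AURKA, which TPX2 holds active at the spindle, differed by -0.12 on CS and -0.77 on CSHA. BARD1 was above TCP by 0.42 on CSHA and CCNB1, a cyclin of mitotic entry, by 0.24. In all, 7 of 11 partners were higher on CSHA than on TCP, with a median of 0.10, and 6 of 11 on CS, with a median of 0.01. These counts lie near the shares of all genes, 61.7% and 56.8%, and the medians lie below those of all genes, 0.13 and 0.04. HMMR itself was at 0.16 on CSHA and 0.39 on CS.

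The TLR4 complex held the pathway gene with the highest CSHA over TCP difference. Of its 7 genes with a value, 5 were above TCP on CSHA, with a median of 0.49, and 4 on CS, with a median of 0.08. Of all genes 61.7% and 56.8% were higher in these comparisons, with medians of 0.13 and 0.04. CD14, which hands lipopolysaccharide to TLR4, was above TCP by 0.50 on CS and 1.04 on CSHA, a 2.05-fold difference, with levels of 1.24, 1.74 and 2.28 over TCP, CS and CSHA. TRAF6, a ubiquitin ligase of the pathway, was above TCP by 0.41 and 0.71. TIRAP, an adaptor at the membrane, differed by -0.66 and -0.91 by its brightest probe, with another probe at -0.28 and -0.25. IRAK1, a kinase of the same pathway, differed by -0.36 on CSHA by 1 probe and by 0.34 by another, and therefore has no settled direction. MYD88, the adaptor common to these steps, differed from TCP by -0.11 on CS and 0.01 on CSHA. LBP was well above background on no array. LY96, also of this list, was so on CS alone, at a level of -4.13, and has no difference.

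Other hyaluronan receptors were mostly not measured. LYVE1, STAB1, LAYN and TLR2 were well above background on no array. STAB2, a scavenger receptor of hyaluronan in sinusoids, was measured on TCP alone, at a level of -2.71. Its bounds were at least 3.06-fold lower on CS and at least 2.28-fold lower on CSHA. The log2 scanner errors of 1.03 and 1.46 include that of the dim signal, which the bounds replace by a higher level. Whether a bound was past the scanner error was therefore not determined. ICAM1 was above TCP by 0.02 on CS and 0.26 on CSHA. Of the hyaluronan-binding matrix and plasma proteins, 12 of 19 were well above background on no array, among them VCAN, ACAN, TNFAIP6 and HAPLN1. ITIH2, a heavy chain that is transferred to hyaluronan, was measured on CS alone. Its bounds there were at least 1.99-fold above TCP and at least 2.02-fold above CSHA. The log2 scanner errors of 1.30 and 1.46 again include that of the dim signal, so whether these bounds were past the scanner error was not determined. C1QBP, a mitochondrial protein that also binds hyaluronan, was above TCP by 0.32 and 0.41. HABP4 was at 0.25 on CSHA, HAPLN3 at 0.12 and HAPLN2 at -0.16.

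Of the other genes listed under hyaluronan breakdown, 6 of 8 were above TCP on CS and 5 of 8 on CSHA, with medians of 0.10 and 0.15, beside 56.8% and 61.7% of all genes with medians of 0.04 and 0.13. HEXA, the alpha subunit of beta-hexosaminidase, had a CS over TCP difference of 0.06 and a CSHA over TCP difference of -0.94, and CSHA was just under 2-fold lower than CS. GLB1 and IDUA, hydrolases of other glycan bonds, were above TCP on CSHA by 0.53 and 0.63. IDS differed by -0.27 on CSHA, and by -0.80 by its other probe. GUSB, which removes glucuronic acid, was at 0.14 on CSHA, and CEMIP2, the membrane-bound relative of CEMIP, was at -0.16.

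**Figure D5:**
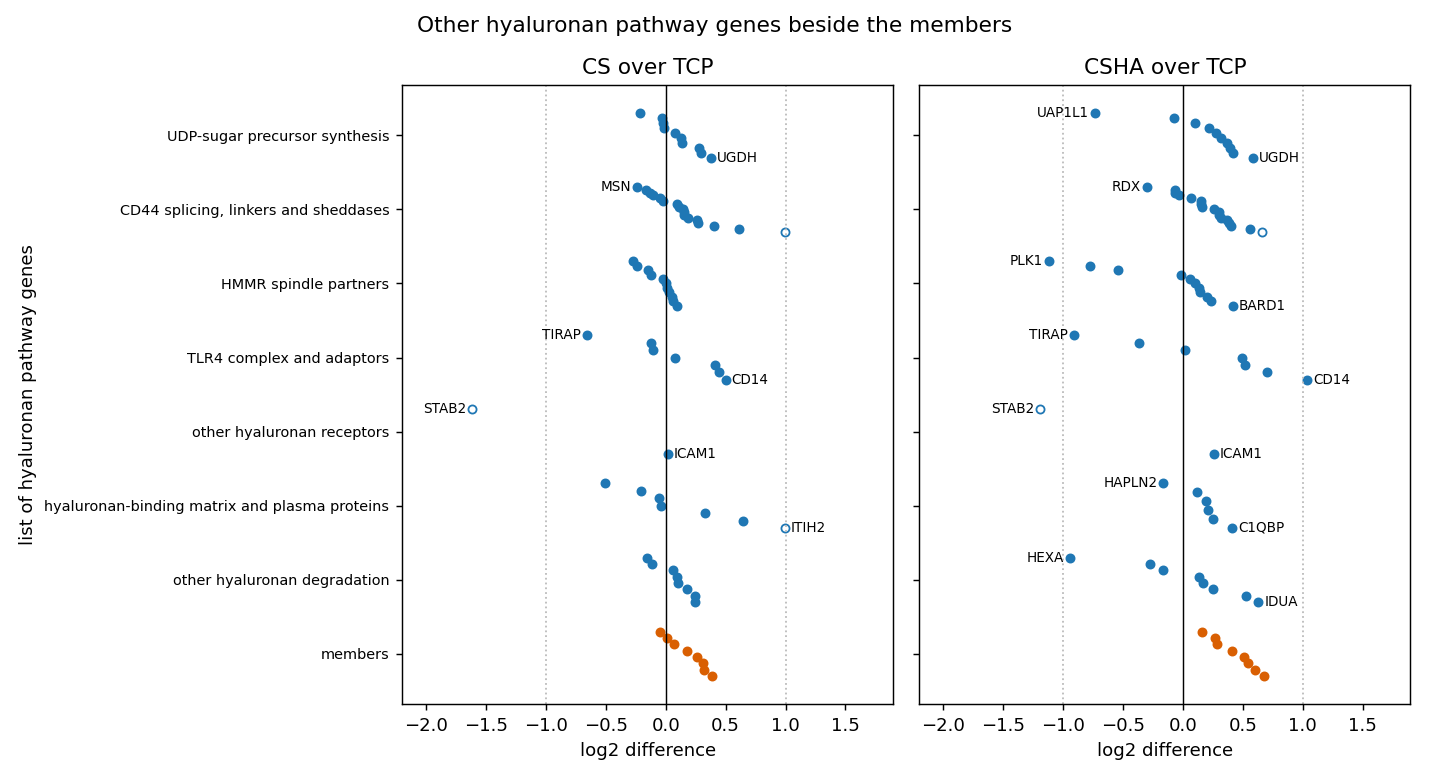
Log2 difference from TCP (horizontal axis) of the other hyaluronan pathway genes on CS and CSHA, by list, with the 8 measured members below. Open circles are bounds for genes measured on 1 of the 2 arrays, dotted lines mark 2-fold, and the lowest or highest gene of a list is labelled where the text gives it by rule. CD14 at 1.04 and PLK1 at -1.12 lie outside the dotted lines on CSHA, and no member does.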

How the data were processed

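RNA of HT29 cells was measured on 1 Agilent array per substrate. The authors deposited spot intensity values from Feature Extraction 10.7.3.1 (per the file headers; the methods name another version), background-subtracted by that software and not normalised between arrays and flagged per spot. They also deposited log2 values, whose differences between arrays equal those of the log2 median spot signal up to an offset. What those log2 values are centred on is not given in the sources used here. The 0 deposited columns without a sample left nothing unused.

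Signals were raised to a floor of 1, following the methods, and log2 values were shifted by the 75th percentile over probes. Outlier spots were left out and spots of a probe averaged. Accessions were matched to symbols of GRCh38.p14 (59.3% of probes), for names and overlaps only, as the array design used hg19. The brightest probe stood for a gene. A gene measured on 1 of 2 arrays has a bound against the higher of its own dim level and the lowest level well above background. Quantile and normexp (offset 50) alternatives used limma 3.58.1 in R 4.3.3, and the rest Python 3.11.15. Genes were counted at 2-fold, without a test. The calculation was tested on simulated data. The simulated differences were larger than those of the members, and the noise was smaller than the scanner error. That test therefore checked the calculation and not how well differences of the members' size are found. The number of arrays limits the precision.

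The members and lists were chosen with earlier results of these data known. The text names all members, and of the pathway list the genes at 2-fold and up to 2 at each end of a list measured on all arrays. Some genes that this rule selects are not reported here. EZR, SPP1, MET, SLC7A11, OGA, MYD88, LY96, GUSB and CEMIP2 were named after their values were seen.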

Additional observations from a re-analysis of the deposited data

How the results depend on the processing

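No paired analysis was possible because each substrate had 1 array. For the same reason no replicate could be left out. Over 264 values of member genes under the alternatives, 245 moved by less than the scanner error, 18 moved further and 6 changed sign. These moves were set against the scanner error itself, without the multiple used for a difference past it. The 1 value left was HMMR for CSHA over CS, at -0.23 as reported and 0.14 with scaling to the 7 spike-in probes. Its sign reversed, and its log2 scanner error was 0.20. Neither of these HMMR values was past the scanner error as defined above. Of 249 other values, 198 were the same and 51 moved. The cause was not tested where a value moved, except that a filter or threshold changes which genes count. The 75th percentile over spots was added after seeing the data and moved none of these.

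With spike-in scaling, 2 members were 2-fold different for CSHA over TCP. The medians of members and of pathway genes were then 0.89 and 0.62 for CSHA over TCP, and 0.67 and 0.45 for CSHA over CS. All genes 2-fold higher and lower were 1736 and 183 for CSHA over TCP, and 950 and 119 for CSHA over CS. The members' median for CSHA over TCP was 0.37 with quantile normalisation, 0.32 with normexp, 0.34 with the deposited values and 0.33 with the mean over probes. For CS over TCP it was 0.13 with the deposited values and 0.14 with the mean over probes.

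The genes 2-fold higher and lower were, in the order CS over TCP, CSHA over TCP and CSHA over CS, 57 and 104, 155 and 292, and 105 and 148 with normexp. They were 68 and 137, 184 and 328, and 155 and 146 with the deposited values. Without a filter on dim probes they were 635 and 1152, 1130 and 1190, and 1111 and 676. With genes well above background on all arrays they were 84 and 80 for CS over TCP, 263 and 445 for CSHA over TCP, and 108 and 203 for CSHA over CS. At a 1.5-fold threshold they were 596 and 728, 1685 and 1637, and 1121 and 1070, and 2 members passed for CSHA over TCP. At 3-fold they were 75 and 123, 149 and 128, and 133 and 79. Signal over background limits HAS1 and HAS2, which no array measured.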
